A study of Pinus pinaster with 12 samples.

Results

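In roots of maritime pine (Pinus pinaster), 16 of 253670 transcript IDs were at least 2-fold lower after ammonium irrigation than after water irrigation in every comparison of single input libraries. They were chosen by a rule on CPM values (the count divided by the library total, times 1000000). The highest CPM of the 3 ammonium inputs had to be at most 0.5 of the lowest CPM of the 3 water inputs, and the mean CPM of the water inputs had to be 2 or more. Of the 48539 IDs at that level, the 16 were 0.033%. The mirrored rule, for IDs raised by ammonium, was met by 212. The input values that chose the 16 are given as a description, with no test, and only the immunoprecipitated RNA, which the rule did not use, was tested.

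Seedlings aged 1 month, of the Segura-Alcaraz provenance and grown in vermiculite, were acclimated for 3 days and then irrigated with 80 mL of water or of 3 mM NH4Cl. Roots were frozen 24 h later, and the experiment was run 3 independent times. No seedling group carried a transgene or mutation in the labels, and how many seedlings made up a sample is not stated in the labels. Polyadenylated RNA was fragmented and sequenced as input, or precipitated first with an antibody against N6-methyladenosine (m6A) and sequenced as IP, with 3 libraries for each treatment and kind.

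Ammonium is a main source of mineral nitrogen for conifers of acidic forest soils. Root cells take it up through ammonium transporters and fix it into glutamine and glutamate by the glutamine synthetase and glutamate synthase cycle, and ammonium supply is known to change the abundance of many root transcripts. The m6A mark is written on messenger RNA by a methyltransferase complex, is read by YTH-domain proteins, and in plants has been tied to transcript stability and translation. The IDs of the files carry no gene names, no reference was used, and so no function can be given to any of the 16, no root marker was checked, and no sequence is shown.

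The depth of the inputs was 69030249 to 81534388 counts per library with water and 74257255 to 79703198 with ammonium. The IP libraries held 57945305 to 63522543 counts with water and 65539363 to 73185176 with ammonium. Replicate 1 of the water IP stood apart. Its mean Pearson r with the 6 inputs, on log2 levels of the 48539 IDs, was 0.598, where the other 5 IP libraries had 0.470 to 0.517 (IDs of 1 genome are not independent, so this is a description). It was the highest of the 6 IP libraries at 55.9% of these IDs. Most results in the IP are therefore given with and without it. In whole roots, fewer cells of a type and less RNA per cell cannot be told apart.

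The 16 transcripts were of modest abundance. Their mean water input level ran from 2.23 to 8.33 CPM, with a median of 3.99, beside a median of 7.85 for all 48539 IDs. With ammonium their means ran from 0.234 to 1.21 CPM. Their summed share of an input library was 0.00649% ± 0.00124 with water and 0.00105% ± 0.000287 with ammonium (SD, n = 3). On pooled counts of the 3 libraries the log2 ratio of ammonium over water in the input ran from -4.34 to -1.28, with a median of -2.50, beside -0.03 for all 48539 IDs.

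The widest gaps belonged to 4 transcripts. The highest ammonium input stood at 0.0891, 0.108, 0.124 and 0.127 of the lowest water input for pp_166457, pp_1921, pp_9618 and pp_175733, and no other transcript was below 0.25. The transcript pp_9618, the most abundant with water, had 6.27, 4.79 and 13.9 CPM in water inputs 1, 2 and 3 and 0.280, 0.593 and 0.339 CPM in ammonium inputs 1, 2 and 3. Its water mean was thus drawn up by replicate 3, and all ammonium inputs lay within a narrow low band. For pp_1921 the water inputs had 7.44, 5.51 and 7.27 CPM and the ammonium inputs 0.407, 0.593 and 0.301 CPM. The water libraries were close together here, and pooled counts were 15.7-fold lower with ammonium (95% counting interval 12.8 to 19.4). The interval leaves out the spread between libraries and the choice of the transcript by these same values.

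For pp_166457 the inputs had 5.46, 4.43 and 3.48 CPM with water and 0.216, 0.310 and 0.176 CPM with ammonium, a pooled ratio 19.4-fold lower. For pp_175733 they had 5.54, 3.60 and 4.33 CPM with water and 0.458, 0.391 and 0.151 CPM with ammonium, 13.7-fold lower on pooled counts. None of these 4 ammonium groups held a library near the water range.

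In other transcripts a single ammonium library set how close the groups came. The transcript pp_160280 had 5.91, 3.48 and 4.72 CPM with water and 1.33, 0.162 and 0.289 CPM with ammonium, so replicate 1 lay well above replicates 2 and 3. Likewise pp_118284 had 4.95, 3.68 and 4.10 CPM with water and 1.81, 0.768 and 0.803 CPM with ammonium. Replicate 1 was the highest ammonium input for 8 of the 16 transcripts, beside 38.1% of all 48539 IDs, and the lowest for 1, beside 38.3%. Replicate 2 was the lowest water input for 13 of the 16, beside 50.2% of all 48539 IDs, and was the highest for 0.

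The remaining single transcripts lay near the level limit. The transcript pp_134249 had 2.31, 1.80 and 3.48 CPM with water and 0.470, 0.162 and 0.213 CPM with ammonium. Similar levels were seen for pp_147892, at 2.50 ± 0.673 CPM with water and 0.448 ± 0.142 with ammonium, and for pp_185404, at 2.31 ± 0.378 and 0.720 ± 0.263 (SD, n = 3). The transcripts pp_197078, pp_209182 and pp_227817 had the most even ammonium inputs and the highest share left with ammonium. Their water means were 2.23 ± 0.354, 2.61 ± 0.161 and 2.80 ± 0.637 CPM and their ammonium means 0.826 ± 0.147, 1.07 ± 0.215 and 0.899 ± 0.0643 CPM (SD, n = 3). Pooled counts of these 3 were 2.71-fold, 2.42-fold and 3.09-fold lower with ammonium.

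**Figure D1:**
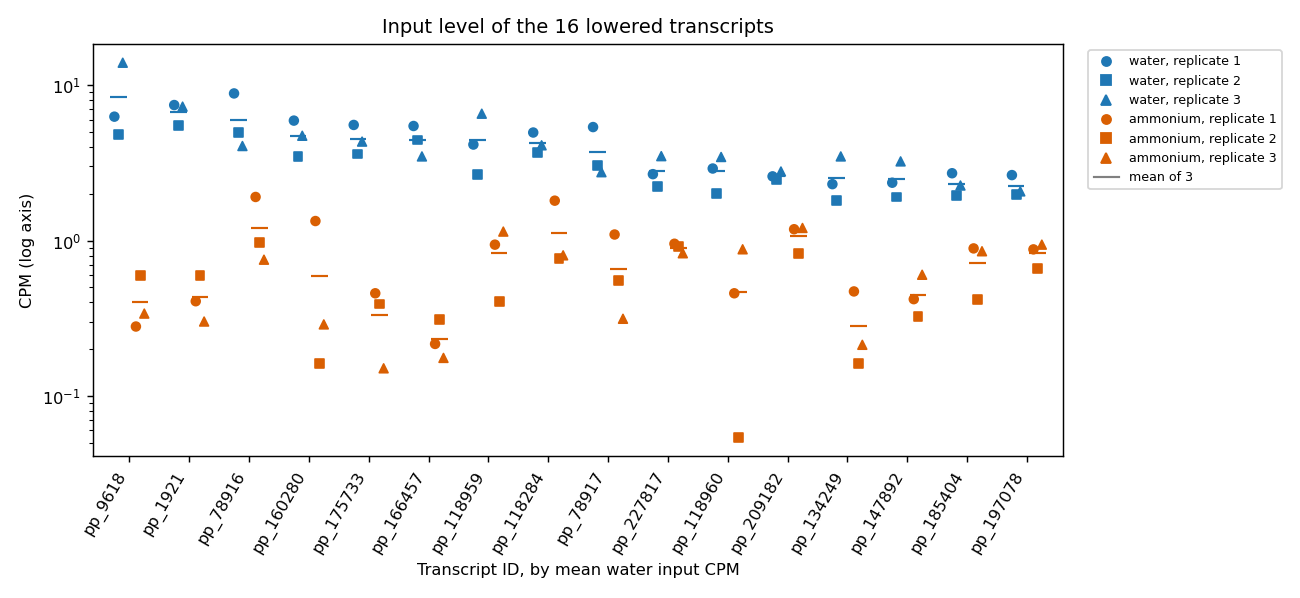
Input level of each of the 16 transcripts in CPM on a log axis, ordered by mean water input; symbols are the 3 water and 3 ammonium libraries and short lines the means. By the rule, every ammonium symbol lies at or below 0.5 of the value of the lowest water symbol, and pp_160280, pp_118284 and pp_78916 show ammonium replicate 1 above the other ammonium libraries.

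The limits of the rule cut through a continuum. Just inside the ratio limit were pp_118284, at 0.491, and pp_209182, at 0.489, and just outside were pp_208330, at 0.506, and pp_111691, at 0.508. Just inside the level limit were pp_197078, at 2.23 CPM, and pp_185404, at 2.31 CPM, and just outside were pp_124906, at 1.91 CPM, and pp_101949, at 1.80 CPM. A further 1538 IDs met the ratio limit below the level limit, where few reads stand behind each value. The spread between libraries was wide for the 16, with a median coefficient of variation of 24.3% in the water inputs and 43.6% in the ammonium inputs, beside 10.0% and 11.2% for all 48539 IDs.

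The IP was asked whether the precipitated RNA of the same transcripts differed between treatments. All 16 had a lower mean CPM in the ammonium IP than in the water IP, and so had 70.1% of the 48539 IDs. Without replicate 1 of the water IP this did not hold for pp_160280, with 0 reads in both treatments, or for pp_185404, with 0 water and 6 ammonium reads. All 3 ammonium IP libraries lay below all 3 water IP libraries for 11 of the 16, where 9.83% of the 48539 IDs did so, as did 11.2% of the 23237 IDs within the water input range of the 16 and 8.43% of all IDs with an IP read. Water replicates 2 and 3 alone lay above every ammonium IP library for the same number, 11 of 16, beside 11.6% of the 48539 IDs. With totals scaled by trimmed mean of M-values (TMM) the count was 9, beside 4.67%, and pp_118960 and pp_175733 then overlapped. Without that scaling their gaps were narrow. The lowest water and highest ammonium IP libraries had 0.0340 and 0.0305 CPM for pp_118960, and 0.102 and 0.0896 CPM for pp_175733. These counts use every transcript and no filter. The IP and the input of a treatment could share RNA, so the IP is a further readout and not a separate set of seedlings.

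No transcript was called in the IP. Of 99846 IDs tested with edgeR's quasi-likelihood test, 0% had an adjusted p under 0.05, while 10.4% had an unadjusted p under 0.05, and 5.2% were also lower with ammonium. Of the 16, 7 passed the expression filter, and pp_1921, pp_9618 and pp_209182 reached it through the water libraries, so counts over the 7 support nothing. Their adjusted p ran from 0.464 to 0.467 and their unadjusted p from 0.00344 to 0.0300 with edgeR. Of the 7, 0 were called with voom, which called 4 of 99846 IDs lower, or with DESeq2, which called 0.156% of all IDs lower. DESeq2 gave no adjusted p for pp_1921, pp_9618 and pp_209182, so it assessed 4. All 7 had an unadjusted p under 0.05 with edgeR, DESeq2 and voom, where the share of all IDs was 10.4%, 11.8% and 13.6%. This count cannot be read against those shares, because pp_1921, pp_9618 and pp_209182 passed the filter through the water libraries. Without replicate 1 of the water IP, 4 of 7 had an unadjusted p under 0.05, beside 8.36% of all 106847 IDs tested, and 0 of either were called. The same limit holds for that count. Replicate number as a block called 0.003% of IDs lower and 0 of the 7 tested. Omission of replicate 2 of the water IP called 0.0285% lower and 0 of the 8 of the 16 then tested. Without the filter, edgeR called pp_9618 (adjusted p = 0.0138) and pp_227817 (adjusted p = 0.00498) lower, with 0.606% of all IDs. With all 12 libraries in the fit it called pp_1921 (adjusted p = 0.0294) and pp_118284 (adjusted p = 0.0477) lower, with 0.0668% of all IDs. The filter, scaling and dispersion of that fit also used the input counts that chose the 16, so these calls support nothing. The transcript pp_118284 passed that filter through the inputs.

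The 4 transcripts with the most IP reads were pp_78916, pp_78917, pp_197078 and pp_227817, and these passed the filter in both treatments. For pp_197078 the IP had 3.75, 1.99 and 2.97 CPM with water and 1.52, 0.943 and 0.977 CPM with ammonium. The groups did not overlap, and the log2 fold change was -1.10 (SE 0.41, adjusted p = 0.466, edgeR), with a range of -1.37 to -0.94 over all alternatives. Without replicate 1 of the water IP it was -0.97. For pp_227817 the IP had 9.19, 1.26 and 1.36 CPM with water and 0.866, 0.724 and 0.595 CPM with ammonium. Its fitted log2 fold change of -2.14 (SE 0.70, adjusted p = 0.464, edgeR) rested on replicate 1 of the water IP: pooled counts were 5.60-fold lower with ammonium and 1.80-fold lower without that library.

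For pp_9618 the IP had 1.95, 0.612 and 0.932 CPM with water and 0.299, 0 and 0.0305 CPM with ammonium, a log2 fold change of -3.11 (SE 1.09, adjusted p = 0.464, edgeR). Its pooled counts were 11.1-fold lower with ammonium and 7.20-fold lower without replicate 1 of the water IP. For pp_209182 the IP had 1.01, 0.408 and 0.449 CPM with water and 0.179, 0.0956 and 0.0915 CPM with ammonium. Its log2 fold change was -2.07 (SE 0.69, adjusted p = 0.464, edgeR), and -1.66 without replicate 1 of the water IP. For both pp_9618 and pp_209182, even the lowest water library stood above the highest ammonium library, with or without replicate 1.

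In 6 of the 16 the ammonium IP held 0 reads in all 3 libraries. These were pp_1921, pp_118284, pp_134249, pp_147892, pp_160280 and pp_166457. Such a count was rare among the 48539 IDs (0.766%), but 16.1% of the 38586 IDs within the ammonium input range of the 16 had it too. A count of 0 allows up to 3 reads over the group, or 0.0146 CPM, so folds are lower bounds that take the water reads as counted. On pooled counts pp_1921 was at least 12.9-fold lower in the ammonium IP, with 34 reads in the water IP, and pp_118284 at least 12.2-fold lower, with 32 reads. The 95% counting limits, which also count the error of the water reads, were lower, at 9.95-fold and 9.34-fold. Without replicate 1 of the water IP both bounds were 14.1-fold. For pp_134249, pp_147892, pp_160280 and pp_166457 the water IP held 16, 10, 8 and 20 reads in all, and the bounds were 6.08-fold, 3.80-fold, 3.04-fold and 7.60-fold. Without replicate 1 the bounds were 3.52-fold for pp_134249, 2.35-fold for pp_147892 and 2.35-fold for pp_166457. The 8 water IP reads of pp_160280 all came from replicate 1, so no fold can be given without it.

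The IP values of pp_175733 and pp_185404 leaned on replicate 1 of the water IP. For pp_175733 it had 0.708 CPM, beside 0.102 and 0.138 in replicates 2 and 3, and the ammonium IP had 0.0896, 0 and 0 CPM. Its pooled counts were 11.2-fold lower with ammonium and 4.11-fold lower without that library. For pp_185404 the IP held 8 reads with water, all in replicate 1, and 6 with ammonium, a ratio of 1.52 (95% counting interval 0.463 to 5.32), so no difference was detectable, and without replicate 1 the direction turned. Replicate 1 was the highest water IP library for 14 of the 16, beside 64.0% of the 48539 IDs; its part in these folds was not tested beyond leaving it out.

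**Figure D2:**
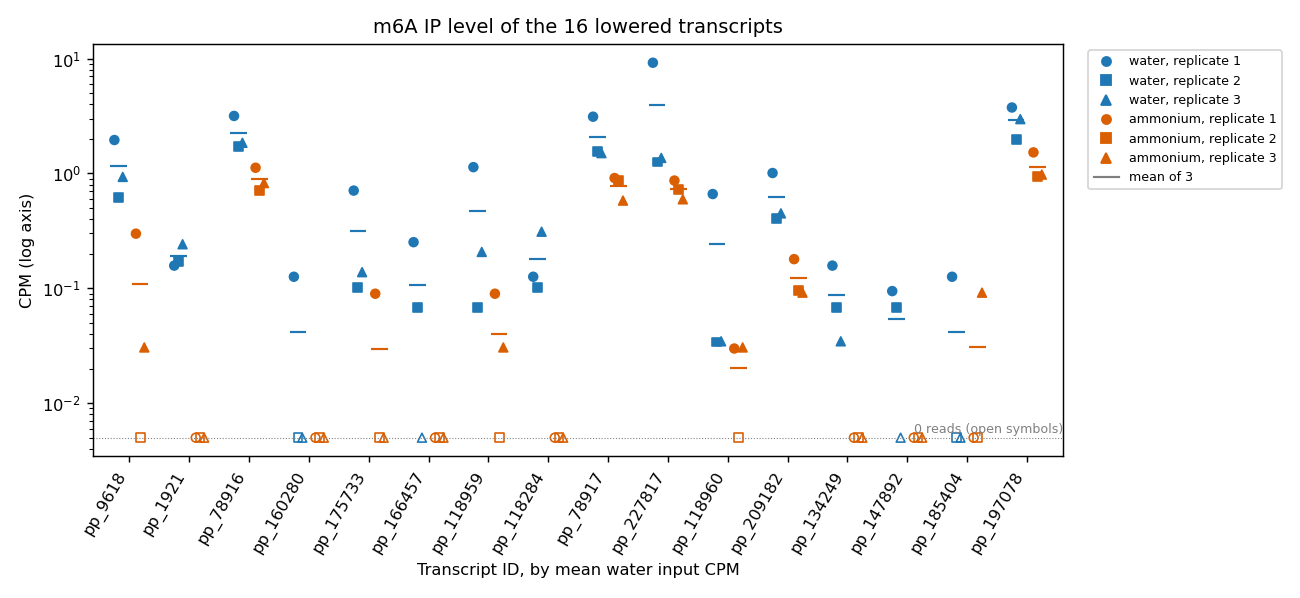
m6A IP level of the 16 transcripts in CPM on a log axis, in the order of the input level; filled symbols are libraries with reads, open symbols on the dotted line libraries with 0 reads, and short lines the means of 3. Water replicate 1 is the top symbol for 14 of 16 transcripts, and 6 transcripts have open symbols for all 3 ammonium libraries.

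Set side by side on pooled counts, with replicate 1 of the water IP included, input and IP were lower with ammonium for all 16. The input and IP ratios lay close together for some transcripts and farther apart for others. The log2 ratio in the IP had a median of -2.55 over the 16, with the 6 transcripts without ammonium reads at their bound, beside -0.41 for 48357 of the 48539 IDs. The input and IP values were -1.44 and -1.36 for pp_197078, and -3.77 and -3.49 for pp_175733. For pp_78916 and pp_78917 the IP ratio was nearer to 0, at -1.37 and -1.41, than the input ratio, at -2.33 and -2.54. For pp_209182 the IP ratio, at -2.38, was farther from 0 than the input ratio, at -1.28. Its pooled IP counts were 5.20-fold lower with ammonium, and 3.52-fold lower without replicate 1 of the water IP. The difference between input and IP ratios was not tested, because the input chose the transcripts.

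**Figure D3:**
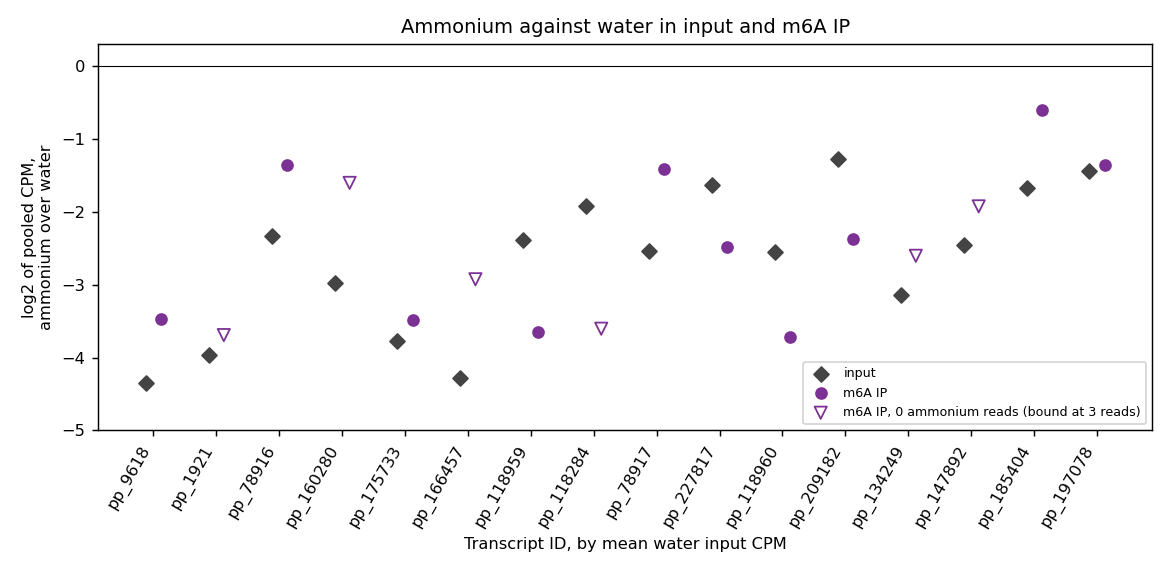
Log2 ratio of ammonium over water on pooled CPM for each of the 16 transcripts, in the input (diamonds) and in the m6A IP (circles). Open triangles are upper limits where the ammonium IP had 0 reads, set at 3 reads; every point lies below 0, from -4.34 to -0.60.

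Most of the 16 were scarce in the IP relative to the input. In water 14 had a lower pooled level in the IP than in the input, and 12 were at least 4-fold lower, beside 43.0% of the 48539 IDs and 44.9% of the 23237 within their water input range. The median log2 ratio of IP over input was -3.62 in water, beside -1.55 for the 48539 IDs, and -4.14 in ammonium with zeros at their bound, beside -2.11. The lowest ratio in water was that of pp_160280, at -6.74. At the other end, pp_227817 and pp_197078 had log2 ratios of 0.56 and 0.38 in water. Without replicate 1 of the water IP the mean IP level of pp_227817 was 1.31 CPM, below its water input mean of 2.80 CPM. That of pp_197078 was 2.48 CPM, beside 2.23 CPM in the water input. With ammonium pp_197078 stood at 0.46 and pp_227817 at -0.30, and pp_78917 at 0.27. These ratios contain the input that chose the transcripts and are a description.

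No m6A peak was listed for any of the 16. The authors' deposited tables held 6637 peaks with water and 6589 with ammonium, on 7077 IDs in all, and 9.09% of the 48539 IDs had a peak in either list. Among the 25259 IDs at or below the highest level of the 16, the share was 4.58%, and among the 28381 IDs at least 2-fold lower in the IP than in the input of water roots it was 2.22%. A count of 0 of 16 allows a share of up to 18.8%, so an absence of peaks could not be told from these shares. The transcripts pp_197078 and pp_227817, above input in the pooled water IP (pp_227817 only with replicate 1), were among those without a peak.

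Of the 16, 4 formed 2 runs of adjacent IDs, and the other 12 had no member next to them. The pair pp_78916 and pp_78917 had 8.84, 4.95 and 4.06 CPM and 5.37, 3.06 and 2.75 CPM in water inputs 1, 2 and 3. With ammonium they had 1.91, 0.970 and 0.753 CPM and 1.09, 0.552 and 0.314 CPM. The libraries of each treatment thus ranked alike in both, and the ratio of pp_78916 to pp_78917 was 1.47 to 1.65 in the water inputs and 1.74 to 2.40 in the ammonium inputs. In the IP they had 3.16, 1.72 and 1.85 CPM and 3.12, 1.56 and 1.50 CPM with water, and 1.12, 0.711 and 0.824 CPM and 0.911, 0.861 and 0.580 CPM with ammonium. Neither pair of IP groups overlapped, and the log2 fold changes were -1.10 (SE 0.43) and -1.14 (SE 0.45), each with an adjusted p of 0.466 to 0.467 with edgeR.

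The pair pp_118959 and pp_118960 had 4.15, 2.65 and 6.55 CPM and 2.91, 2.01 and 3.45 CPM with water. With ammonium they had 0.941, 0.404 and 1.14 CPM and 0.458, 0.0539 and 0.878 CPM. Replicate 3 was the highest and replicate 2 the lowest in both treatments for both IDs. Both were scarce in the IP, with 88 and 46 reads in the water IP and 8 and 4 in the ammonium IP, and most of the water reads came from replicate 1. Without it the pooled counts of pp_118959 were 3.52-fold lower with ammonium, against 12.5-fold with it, and those of pp_118960 1.76-fold, against 13.1-fold. The value of 1.76-fold for pp_118960 rested on 4 water and 4 ammonium reads, so only the library totals differed. Transcripts with adjacent IDs could share reads, and how multiply matching reads were counted is not stated in the labels, so each pair is uncertain as separate transcripts.

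The IDs around the 16 lay in part near their water level in the ammonium inputs. Within 3 numbers of them lay 84 other IDs, of which 55 had a mean water input below 0.5 CPM and gave no usable ratio. In the other 29 the ratio of mean ammonium to mean water input had a median of 0.932, beside 0.967 for all 78295 IDs at that level, and 17 lay within 0.8 and its inverse. A further 9 lay below 0.8, beside 18.4% of the 78295 IDs, and 3 lay above the inverse. The ID pp_118958, next to the pair pp_118959 and pp_118960, had 71.4 ± 7.17 CPM with water and 65.0 ± 5.52 with ammonium in the input (SD, n = 3). It was higher in the IP, at 128 ± 11.0 CPM with water, and carried a peak, unlike the pair. The ID pp_78918, next to pp_78917, had 33.4 ± 7.34 CPM with water and 27.0 ± 4.51 with ammonium (SD, n = 3), and its groups overlapped.

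The 9 neighbours with a ratio below 0.8 lay around 3 of the 16. Next to pp_209182, the IDs pp_209180, pp_209181 and pp_209183 had ratios of 0.602, 0.724 and 0.467, and in each all ammonium inputs lay below all water inputs. Next to pp_197078, the IDs pp_197077, pp_197079 and pp_197080 had ratios of 0.628, 0.418 and 0.518, and the last of these overlapped between treatments. On one side of pp_118284, the IDs pp_118281, pp_118282 and pp_118283 had ratios of 0.716, 0.725 and 0.645, of which the first 2 overlapped between treatments, and on the other side pp_118285, pp_118286 and pp_118287 had 0.916, 1.01 and 0.940. Among the 29 neighbours, 6 had all ammonium inputs below all water inputs, beside 9.91% of the 78295 IDs. The opposite was seen beside pp_227817, where pp_227818, pp_227819 and pp_227820 had ratios of 1.67, 1.73 and 1.36. How ID numbers were assigned is not stated, so neighbours are not shown to be related.

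**Figure D4:**
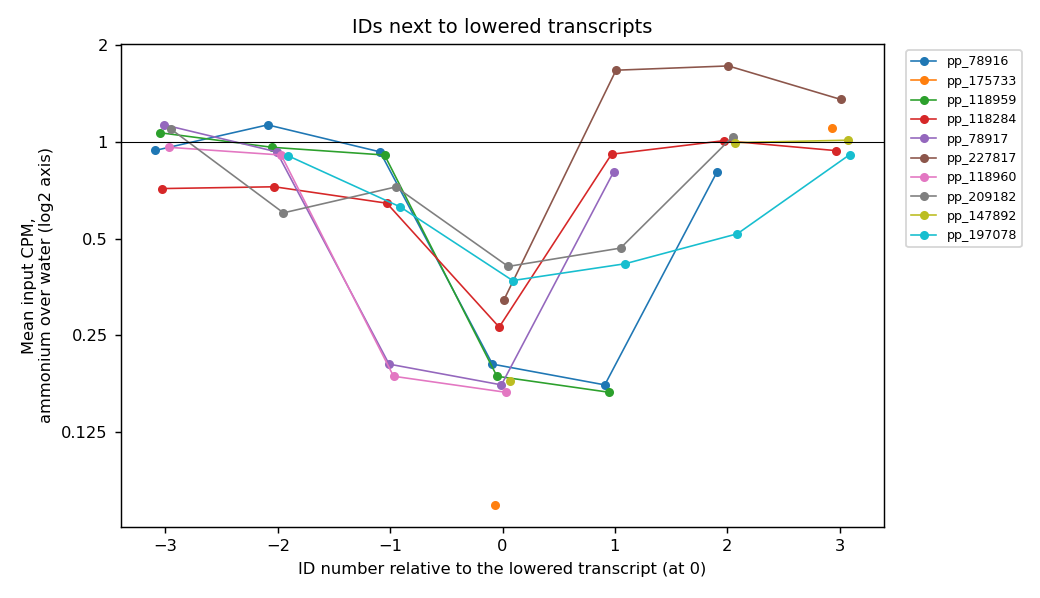
Ratio of mean ammonium to mean water input CPM (log2 axis) for the 10 lowered transcripts with a neighbour of 0.5 CPM or more, at position 0, and for the IDs up to 3 numbers before and after. Lines join adjacent IDs. Of the 29 neighbours, 17 lie within 0.8 and its inverse. Those of pp_209182 and pp_197078 lie between 0.4 and 1.1, and those of pp_227817 above 1.

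The number 16 rested on replicate 1 of the ammonium inputs. Without that library 345 IDs met the rule, the 16 among them, whereas omission of any other input library left 18 to 34. In the 329 added IDs replicate 1 had a median of 0.800 of the mean water input (quartiles 0.675 and 0.923), where replicates 2 and 3 had 0.330 and 0.314. All 3 values follow from how the 329 were chosen, since they met the ratio limit in replicates 2 and 3 and missed it in replicate 1. In the 16 the 3 ammonium inputs had medians of 0.248, 0.110 and 0.158. Among the 329, replicate 1 was at or above the lowest water input for 116. Summed over the 329, the inputs had 3964, 3271 and 3934 CPM with water and 3002, 1216 and 1128 CPM with ammonium.

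The IP, which did not choose the 329, held them unevenly too. Replicate 1 was the highest ammonium IP library for 208 of the 329 (63.2%), beside 37.1% of the 48539 IDs. Their summed IP level was 972, 197 and 392 CPM with water and 206, 115 and 104 CPM with ammonium, so water replicate 1 stood above the rest and ammonium replicate 1 lay level with water replicate 2. The labels do not state that replicate 1 of the input and of the IP came from the same seedlings. Deviations from the group mean of same-numbered ammonium input and IP libraries correlated across IDs at 0.29, 0.25 and 0.35, and those of same-numbered water input and IP libraries at 0.09, 0.24 and -0.07, as a description. A peak was listed for 6 of the 329 (1.82%).

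Runs of adjacent IDs were common in this wider list. The 345 IDs held 61 runs with 151 IDs, of which the longest 2 had 7 IDs each. In the run from pp_134987 to pp_134993, the most abundant ID, pp_134987, had 17.5, 15.9 and 13.8 CPM with water and 15.9, 4.36 and 1.83 CPM with ammonium. In the run from pp_147855 to pp_147861, the most abundant, pp_147859, had 22.2, 16.7 and 19.9 CPM with water and 17.2, 4.78 and 3.06 CPM with ammonium. For both IDs ammonium replicate 1 lay within the water range and replicate 3 was the lowest. Neither run held any of the 16.

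**Figure D5:**
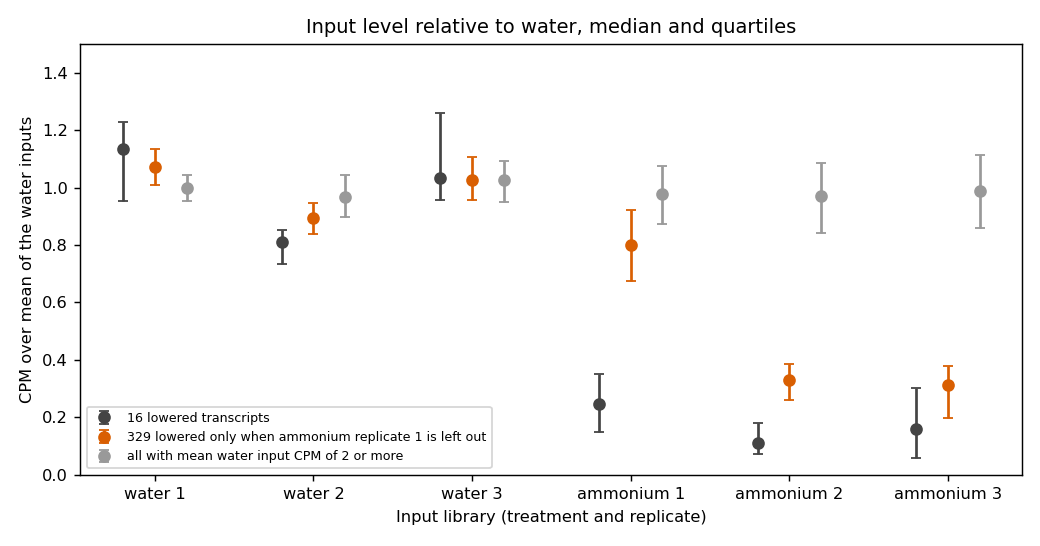
Input level in each of the 6 input libraries relative to the mean of the water inputs, as median and quartiles over the 16 lowered transcripts, the 329 IDs that met the rule only without ammonium replicate 1, and all 48539 IDs at 2 CPM or more. The 329 stand at 0.800 in ammonium replicate 1 and at 0.330 and 0.314 in replicates 2 and 3, whereas the medians of the 16 are 0.248, 0.110 and 0.158.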

How the data were processed

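The read counts per transcript ID are the authors' deposited values, whole numbers without normalization. Tools named in the submitters' processing notes are bcl2fastq and BWA. The sources used here give no version, reference, counting rule or strandedness. Per the file headers, the deposited peak lists (1 per treatment) give a fold enrichment, a ratio, for each peak, and the deposited score column holds a p-value, as read from its values; no caller is named, and peaks have no replicates.

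The transcripts and tests were chosen with earlier results of these data known. CPM used library totals. Pooled ratios are summed counts over summed totals of 3 libraries, a count of 0 was replaced by 3 reads per group, and 95% intervals (exact binomial) cover counting error only. Pearson r used log2(CPM + 0.5).

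The IP contrast used edgeR 4.0.16 under R 4.3.3 on 6 libraries, with TMM scaling, IDs kept by the default filter (counts of 10, total of 15), a two-sided quasi-likelihood F test with robust estimation, and Benjamini-Hochberg adjustment over all IDs tested, threshold 0.05. The p-values of this contrast measure the spread between 3 libraries. The same fit was run on simulated counts with a single dispersion and no outlying library, unlike these data. That run does not show how the fit performs here. Peak overlaps used bedtools 2.31.1. Pairs of libraries within a group differed beyond sampling noise (chi-square per degree of freedom 21.2 to 109).

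Transcripts to name were taken from the 16 by level, ratio, IP p-value, run membership, IP/input and nearness to the limits, which covered all 16; neighbours, runs and IDs of the wider list were named after their values were seen. Alternatives were DESeq2 1.42.0, voom of limma 3.58.1, other scalings and filters, a replicate block, all 12 libraries, omission of each library, and other limits of the rule.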

Additional observations from a re-analysis of the deposited data

How the results depend on the processing

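The number of transcripts that met the rule was 15 with TMM-scaled or DESeq2-type totals (pp_78916 was lost, and 1 run was left in each), 45 with a mean water input of 1 CPM or more, 3 with 5 CPM or more (0 runs) and 4 with a ratio of at most 0.25 (0 runs). Omission of 1 input library gave 18 to 345 transcripts and 2 to 61 runs; replicates 2 and 3 of the water inputs gave 31 and 34, and replicates 1 and 3 of the ammonium inputs 345 and 25. The count of transcripts whose IP groups did not overlap was 9 with TMM-scaled totals, beside 4.67% of the 48539 IDs, and 9 with DESeq2-type totals. It was 11 without replicate 1 of the water IP, beside 11.6%, and 11 to 13 over all omissions of 1 IP library. Groups with 1 library fewer separate more easily. The share of all IDs was not computed for the other settings, so those counts cannot be set against it. The alternatives for peaks were stricter than the main setting, so the count of 0 could not rise.

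In the IP, where edgeR called 0 IDs in all and 0 of the 16, DESeq2 called 316, voom with sample weights 9, edgeR without a filter 1863, edgeR with all 12 libraries 879, and omission of 1 IP library gave 0 to 34 (34 without replicate 2 of the water IP). With the replicate block 8 were called, 0 of them among the 16. The labels do not say that a number marks a run of the experiment. Deviations of same-numbered water and ammonium libraries correlated at 0.05, -0.09 and -0.01 in the IP and at 0.01, 0.37 and 0.17 in the input, so a pairing by number was not shown. Of the 16, 2 were called without a filter (pp_9618 and pp_227817) and 2 with all 12 libraries (pp_1921 and pp_118284), and 0 in the other settings run. Those other settings tested 4 to 8 of the 16. The fit with all 12 libraries also used the inputs that chose the 16. The median log2 fold change of the tested transcripts, -2.07 in the main analysis for 7, was -1.29 with voom, -3.10 without a filter (16 tested), -1.23 with a filter of 50 reads in 3 libraries (4 tested), -3.08 with all 12 libraries (16 tested), and -2.38 to -0.97 when 1 IP library was omitted, the last without replicate 1 of the water IP. The cause of these shifts was not tested beyond the change in the transcripts tested. Library totals in place of TMM moved the median of all IDs tested from -0.23 to -0.45. No fitted log2 fold change changed sign in the settings where a transcript was fitted, which for 8 of the 16 were only the fits without a filter and with all 12 libraries. The pooled IP ratio of pp_185404 turned without replicate 1 of the water IP, with 0 water and 6 ammonium reads. Few reads limit the IP values: 12 of the 16 had under 250 reads in the 3 water IP libraries together.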

Other observations

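Transcripts just outside the limits showed the following values. The transcript pp_124906, below the level limit, had 2.18, 1.64 and 1.91 CPM in the water inputs and 0.725, 0.229 and 0.351 CPM in the ammonium inputs. Its IP had 0.331, 0.0680 and 0 CPM with water and 0 in all 3 ammonium libraries. Just outside the ratio limit, pp_208330 had 2.91, 2.71 and 2.74 CPM with water and 1.37, 1.21 and 1.08 CPM with ammonium in the inputs. Its IP had 1.51, 0.204 and 0.311 CPM with water and 0.179, 0.191 and 0 CPM with ammonium.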
